A study of Rattus norvegicus with 22 samples.

Results

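Retinoic acid is a small lipid signal made inside cells from retinol, the circulating form of vitamin A. Retinol reaches tissues bound to Rbp4 and can enter cells through the receptor Stra6, is oxidized to retinaldehyde by Rdh10, and is then turned into retinoic acid by the enzymes Aldh1a1, Aldh1a2 and Aldh1a3. Crabp1 and Crabp2 bind retinoic acid in the cytoplasm, Crabp2 being known for carrying it to nuclear receptors, and Cyp26b1 degrades it. In the developing spinal cord the signal takes part in the patterning of motor neurons, and Aldh1a2 is also a known product of the meninges.

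These 9 genes of retinoic acid synthesis, binding and clearance were picked by their symbol from the 32883 genes of a table of read counts, and each symbol had a single entry. The table holds 22 libraries of ventral cervical spinal cord, 1 per Sprague-Dawley rat of 3 to 4 months. The groups were 5 males with testes in place (intact males), 5 males castrated 2 weeks earlier (GDX), 6 females with ovaries in place (intact females) and 6 females whose ovaries had been removed 2 weeks earlier (OVX). The study asked how loss of the gonads changes gene expression in this tissue. The paper describes the intact rats as age-matched controls and names no sham operation. Loss of the gonads therefore cannot be told apart from effects of the surgery and its drugs. Between 12371756 and 17571887 reads were counted per library, and levels are given as CPM, counts scaled to the same library total, after TMM scaling of the library sizes. At this depth Aldh1a3 rested on 2 to 6 reads in each intact male, and its level there is imprecise. The counts of Kdm5d and Eif2s3y, which lie on the Y chromosome, were 0 in every female library and above 0 in every male library. Ddx3y, a gene with a close relative on the X chromosome, had 6 to 27 reads in each female and 4 to 26 in each male. Its counts therefore did not separate the sexes.

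The libraries differ in a way that the groups do not share evenly. Those of all 5 GDX males and all 6 OVX females belong to a class with a short insert, while 3 of 5 intact males and 4 of 6 intact females belong to a class with a long insert. Insert class and gonadectomy are therefore partly confounded. In intact males, Rbp4 measured 2.51 to 2.54 CPM in the short and 2.96 to 4.75 CPM in the long class. Aldh1a1, Aldh1a3 and Stra6 were also lower in the short class of intact males, without overlap. These classes hold only 2 and 3 intact males, and genes without overlap were not counted over the whole table. The classes overlapped for the other members in intact males and for all 9 in intact females. Among the intact rats, with sex as a term, 0 of 9 members differed between the long and the short class at an adjusted p under 0.1 (edgeR), beside 0.0066% of 15147 genes. The number with an unadjusted p under 0.05 was also 0, beside 1170 of 15147 genes, and DESeq2 called 0 members. The log2 differences, long minus short, were Rdh10 (0.11, adjusted p = 0.937), Aldh1a1 (0.17, adjusted p = 0.738), Aldh1a2 (0.04, adjusted p = 0.991), Aldh1a3 (0.43, adjusted p = 0.845), Rbp4 (0.07, adjusted p = 0.978), Stra6 (0.03, adjusted p = 0.992), Crabp1 (-0.50, adjusted p = 0.848) and Crabp2 (0.47, adjusted p = 0.788), and for Cyp26b1 the value was within 0.01 of 0.

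**Figure D1:**
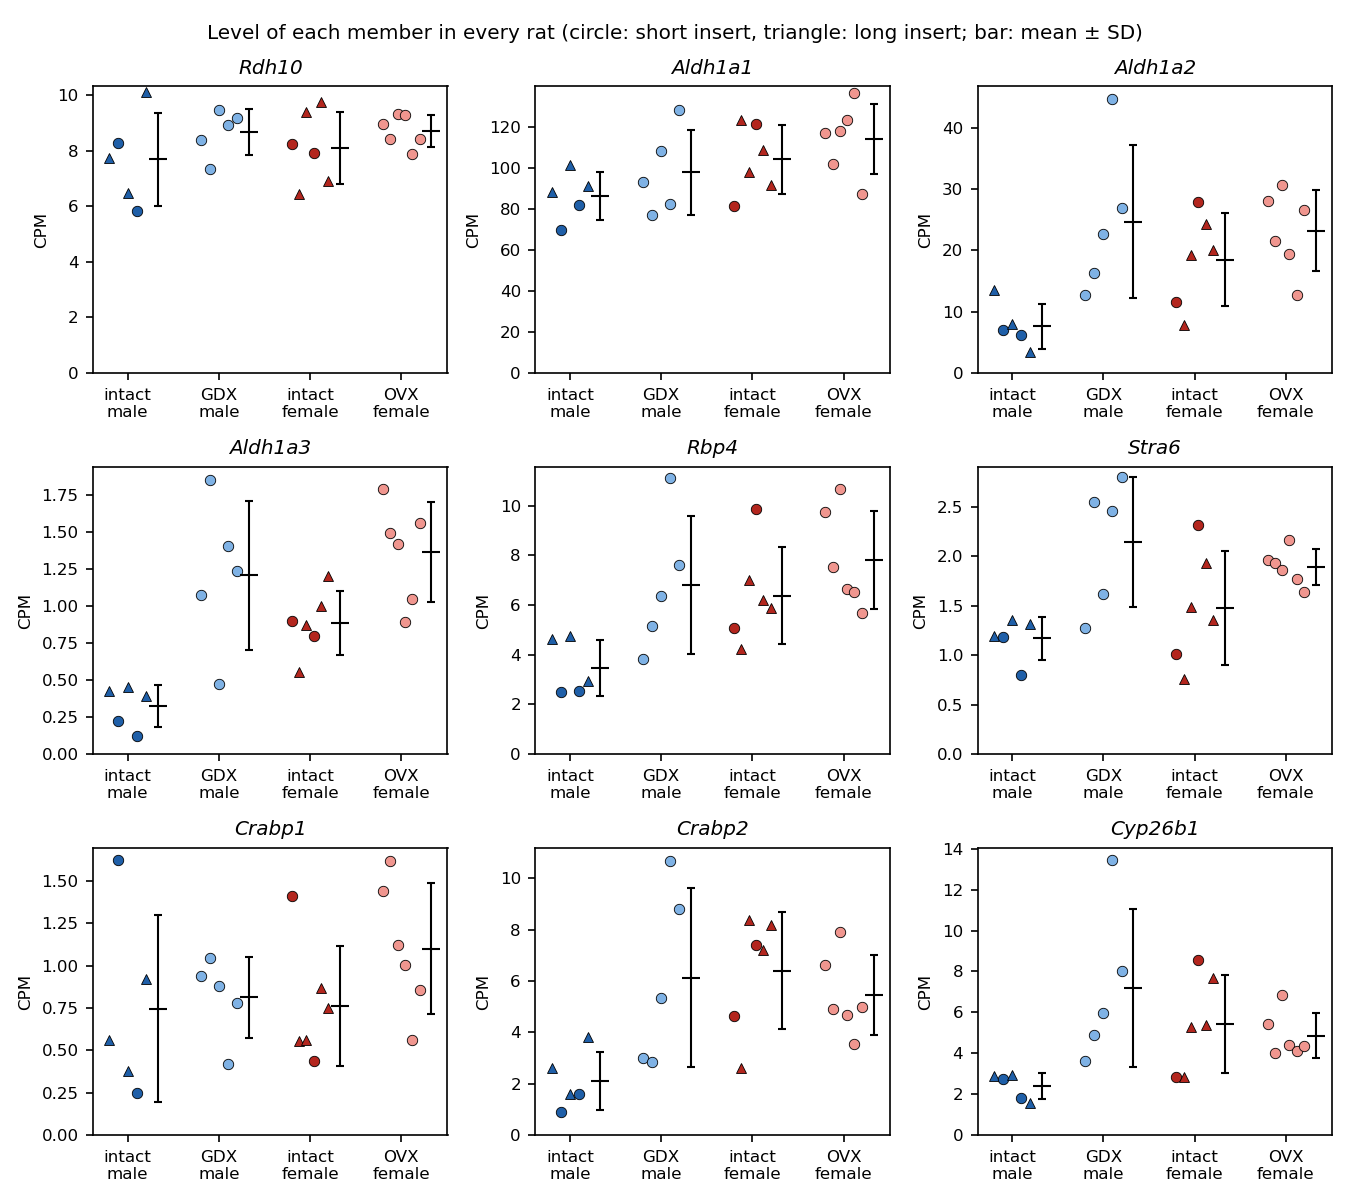
Level of each of the 9 genes in CPM (vertical axis, starting at 0) in every rat of the 4 groups, with circles for short insert libraries, triangles for long insert libraries and bars for mean ± SD. The intact males lie lowest for Aldh1a2, Aldh1a3, Rbp4, Crabp2 and Cyp26b1, with overlap in most of them, while Rdh10, Aldh1a1 and Crabp1 have similar ranges in the 4 groups.

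Castrated males had more RNA of genes at several steps of the pathway than intact males. Of the 8 members that passed the filter on low counts in males, 5 were higher in GDX at an adjusted p under 0.1 (edgeR) and 0 were lower. Over all 14931 genes tested, 13.4% were called in either direction and 6.78% were called higher. The members were chosen with earlier results of these data known, so these shares form no test. The median log2 fold change was 0.92 over the 8 members and 0.0021 over all genes. The called genes were the synthesis enzyme Aldh1a2, the carrier Rbp4, the receptor Stra6, the binding protein Crabp2 and the clearing enzyme Cyp26b1.

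Among the synthesis enzymes, Aldh1a2 (ENSRNOG00000055049) measured 13.5, 7.08, 7.92, 6.19 and 3.35 CPM in intact males 1, 2, 3, 5 and 6. In GDX males 1, 2, 4, 5 and 6 it measured 12.7, 16.3, 22.7, 44.8 and 26.9 CPM. GDX male 5 was highest and intact male 6 lowest, and 4 of 5 GDX males lay above every intact male. The log2 fold change of Aldh1a2 was 1.70 ± 0.34 (SE, adjusted p = 0.0097). In bulk tissue, fewer cells that express a gene and less of its RNA per cell cannot be told apart, and this holds for each difference reported here.

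Aldh1a3 (ENSRNOG00000052070), another enzyme of the same step, measured 0.423, 0.221, 0.453, 0.124 and 0.394 CPM in intact males 1, 2, 3, 5 and 6. In GDX males 1, 2, 4, 5 and 6 it measured 1.07, 1.85, 0.473, 1.41 and 1.24 CPM. The groups did not overlap, although GDX male 4 lay close to the intact males. Aldh1a3 did not pass the filter on low counts in the comparison of males. Without the filter its log2 fold change was 1.89 ± 0.43 (SE, adjusted p = 0.012), and with all 22 rats in 1 fit it was 1.90 ± 0.36 (SE, adjusted p = 0.00183).

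The earlier and the more abundant enzymes of synthesis gave other values. Rdh10 (ENSRNOG00000006681) ranged from 5.82 to 10.1 CPM in intact males and from 7.36 to 9.46 CPM in GDX males, for a log2 change by 0.17 ± 0.14 (SE, adjusted p = 0.515). Aldh1a1 (ENSRNOG00000017619) ranged from 69.8 to 101.3 CPM in intact males and from 76.9 to 128.1 CPM in GDX males, for a log2 change by 0.17 ± 0.12 (SE, adjusted p = 0.431). For neither gene was the difference larger than the spread between rats. How the authors' counting treated reads shared by paralogs such as the Aldh1a genes is not given in the sources used here.

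For delivery of retinol, Rbp4 (ENSRNOG00000015518) measured 4.65, 2.51, 4.75, 2.54 and 2.96 CPM in intact males 1, 2, 3, 5 and 6. In GDX males 1, 2, 4, 5 and 6 it measured 3.82, 5.16, 6.35, 11.1 and 7.63 CPM. GDX male 1 fell within the intact range and the other GDX males lay above it. The log2 fold change of Rbp4 was 0.97 ± 0.27 (SE, adjusted p = 0.0417). Stra6 (ENSRNOG00000008312), the cell surface receptor for Rbp4, measured 1.198, 1.18, 1.36, 0.805 and 1.31 CPM in the same intact males. In the GDX males it measured 1.27, 2.55, 1.62, 2.46 and 2.80 CPM. Again GDX male 1 lay among the intact males and 4 of 5 GDX males above them. The log2 fold change of Stra6 was 0.87 ± 0.26 (SE, adjusted p = 0.0494).

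Of the binding proteins, Crabp2 (ENSRNOG00000022101) measured 2.61, 0.885, 1.58, 1.61 and 3.81 CPM in intact males 1, 2, 3, 5 and 6. In GDX males 1, 2, 4, 5 and 6 it measured 3.02, 2.84, 5.34, 10.7 and 8.803 CPM. GDX males 5 and 6 were far above the rest, and 3 of 5 GDX males lay above every intact male. The log2 fold change of Crabp2 was 1.53 ± 0.41 (SE, adjusted p = 0.0311). Its relative Crabp1 (ENSRNOG00000023633) ranged from 0.248 to 1.62 CPM in intact males and from 0.422 to 1.04 CPM in GDX males, for a log2 change by 0.14 ± 0.43 (SE, adjusted p = 0.881). The sign of the Crabp1 value turned when the insert class was a term in the model (-0.15) and with short insert libraries alone (-0.16).

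The clearing enzyme Cyp26b1 (ENSRNOG00000015076) measured 2.89, 2.73, 2.94, 1.80 and 1.58 CPM in intact males 1, 2, 3, 5 and 6. In GDX males 1, 2, 4, 5 and 6 it measured 3.62, 4.87, 5.94, 13.4 and 8.02 CPM. The groups did not overlap, and GDX male 5 was the highest, as it was for Aldh1a2, Rbp4 and Crabp2. The log2 fold change of Cyp26b1 was 1.59 ± 0.32 (SE, adjusted p = 0.00984).

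Leaving out 1 rat changed which members were called. Without intact male 1, 2, 3 or 6 or GDX male 4 the count was 6, since Aldh1a3 then passed the filter, by its reads in the GDX males where it is high, and was called too. Without GDX male 5, 3 members were called, since Rbp4 (0.72, adjusted p = 0.115) and Stra6 (0.82, adjusted p = 0.118) passed the level no longer. Stra6 also lost its call without intact male 5 (0.76, adjusted p = 0.114), where Aldh1a3 kept the count at 5, or GDX male 6 (0.76, adjusted p = 0.121), where the count was 4. Over the 10 rats left out in turn, the log2 fold change stayed between 1.37 and 2.01 for Aldh1a2, 1.23 and 1.76 for Cyp26b1, and 1.23 and 1.86 for Crabp2, each with an adjusted p under 0.1. The short insert libraries alone leave 2 intact males. In them Aldh1a2 (1.89, adjusted p = 0.0859), Aldh1a3 (2.78, adjusted p = 0.0859), Crabp2 (2.26, adjusted p = 0.0959) and Rbp4 (1.425, adjusted p = 0.0987) were called. Aldh1a3 had 3 and 2 reads in these intact males and passed the filter by its reads in the GDX males, where it is high. In the same libraries Cyp26b1 (1.67, adjusted p = 0.112) and Stra6 (1.11, adjusted p = 0.18) were not called, although their log2 fold changes were no smaller than with all males. With insert class as a term Stra6 was not called (1.12, adjusted p = 0.118), and with RNA integrity as a term 2 members were called, Aldh1a2 (adjusted p = 0.045) and Cyp26b1 (adjusted p = 0.0533), while Crabp2 stood at 1.12, Rbp4 at 0.87 and Stra6 at 0.73.

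The promoters of 8 of the 9 members were found in the RefSeq table of build GRCr8, and Rdh10 was not among them. The 250 bases before the start were searched on both strands for the half-sites of retinoic acid response elements, written RGKTCA with R for A or G and K for G or T, and for direct repeats of these half-sites with a spacing of 1, 2 or 5 bases. The 4 sequences shown belong to genes called higher after castration, namely the 3 with the largest log2 fold changes and Stra6, which holds a half-site. They lie at chr8:80758391-80758640, plus strand (Aldh1a2), chr2:175714612-175714861, plus strand (Crabp2), chr4:118616177-118616426, minus strand (Cyp26b1) and chr8:67444507-67444756, plus strand (Stra6). Each is written in the direction of its gene, and capitals mark a half-site.
Aldh1a2: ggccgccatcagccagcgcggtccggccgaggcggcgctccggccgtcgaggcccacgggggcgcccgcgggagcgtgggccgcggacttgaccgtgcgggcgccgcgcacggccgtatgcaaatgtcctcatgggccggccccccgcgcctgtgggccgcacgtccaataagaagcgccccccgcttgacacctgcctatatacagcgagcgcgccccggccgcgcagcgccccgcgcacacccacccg
Crabp2: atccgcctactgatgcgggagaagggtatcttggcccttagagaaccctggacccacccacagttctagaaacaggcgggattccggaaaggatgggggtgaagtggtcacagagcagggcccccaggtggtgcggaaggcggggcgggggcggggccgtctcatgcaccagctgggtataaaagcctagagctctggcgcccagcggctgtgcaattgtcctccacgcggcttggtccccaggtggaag
Cyp26b1: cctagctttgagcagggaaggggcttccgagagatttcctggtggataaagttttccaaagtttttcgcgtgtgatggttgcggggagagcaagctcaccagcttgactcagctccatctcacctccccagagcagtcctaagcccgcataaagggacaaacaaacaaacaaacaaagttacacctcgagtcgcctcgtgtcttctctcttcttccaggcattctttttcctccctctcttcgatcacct
Stra6: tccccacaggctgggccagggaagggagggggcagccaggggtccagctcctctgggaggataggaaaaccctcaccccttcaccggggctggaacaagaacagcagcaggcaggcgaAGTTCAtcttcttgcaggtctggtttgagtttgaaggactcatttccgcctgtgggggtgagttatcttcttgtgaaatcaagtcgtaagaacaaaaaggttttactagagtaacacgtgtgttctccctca
Stra6 held AGTTCA at bases 132 to 127 before its start. Aldh1a1, whose difference was not called, held GGGTCA on the other strand at bases 65 to 60 before its start. No half-site was found in this window for the other 6 members, and no direct repeat for any of the 8. Of 33469 promoters of the same length, 39.1% held a half-site, and 0.194%, 0.137% and 0.326% held a direct repeat with a spacing of 1, 2 and 5 bases. A match of letters is a description and not a site of binding. G and C made up 77.2% of the Aldh1a2 window, beside a median of 51.2% over all promoters.

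In females, removal of the ovaries was followed by no call among the members. At an adjusted p under 0.1 (edgeR) 0 of 9 were called, beside 0.0335% of 14910 genes tested. DESeq2 also called 0 of the members, and 1 member, Aldh1a3, had an unadjusted p under 0.05 (edgeR), beside 1516 of 14910 genes. The median log2 fold change was 0.30 over the members, 7 of 9 being above 0, and 0.00255 over all genes.

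Aldh1a3 had a low of 0.553, a median of 0.886 and a high of 1.20 CPM in intact females, and a low of 0.891, a median of 1.46 and a high of 1.79 CPM in OVX females. Of the 6 OVX females, 4 lay above every intact female. Its log2 fold change was 0.62 ± 0.24 (SE, adjusted p = 0.374). For Aldh1a2 the low, median and high were 7.88, 19.7 and 27.8 CPM in intact females and 12.7, 24.1 and 30.7 CPM in OVX females. The ranges overlapped widely, and the log2 fold change was 0.33 ± 0.25 (SE, adjusted p = 0.701).

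For Rbp4 the low, median and high were 4.22, 6.04 and 9.86 CPM in intact females and 5.69, 7.09 and 10.7 CPM in OVX females. For Stra6 they were 0.760, 1.42 and 2.32 CPM in intact females and 1.64, 1.90 and 2.17 CPM in OVX females. The OVX range of Stra6 lay inside the intact range. Crabp2 had a low of 2.63, a median of 7.30 and a high of 8.39 CPM in intact females, and 3.54, 4.96 and 7.91 CPM in OVX females. Cyp26b1 had a low of 2.82, a median of 5.34 and a high of 8.55 CPM in intact females, and 3.99, 4.38 and 6.87 CPM in OVX females. Crabp2 and Cyp26b1 were the members with a log2 fold change below 0 after OVX, at -0.23 ± 0.24 (SE, adjusted p = 0.815) and -0.15 ± 0.25 (SE, adjusted p = 0.904). The values of the others were Rbp4 (0.30, adjusted p = 0.637), Stra6 (0.37, adjusted p = 0.636), Rdh10 (0.11, adjusted p = 0.802), Aldh1a1 (0.13, adjusted p = 0.733) and Crabp1 (0.52, adjusted p = 0.607).

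Whether the response to gonadectomy differed between the sexes was tested directly with all 22 rats, GDX against intact males minus OVX against intact females. At an adjusted p under 0.1 (edgeR) 0 of 9 members were called, beside 0.116% of 15562 genes. An unadjusted p under 0.05 was reached by 4 of the 9 members and by 1810 of the 15562 genes. The difference was 1.74 ± 0.44 (SE, adjusted p = 0.129) for Cyp26b1, 1.76 ± 0.50 (SE, adjusted p = 0.164) for Crabp2, 1.37 ± 0.47 (SE, adjusted p = 0.23) for Aldh1a2 and 1.28 ± 0.46 (SE, adjusted p = 0.258) for Aldh1a3, all on the log2 scale. The calls in males and their absence in females are therefore not evidence of a difference between the sexes, and equal responses were not shown either. The other members gave Rbp4 (0.68, adjusted p = 0.469), Stra6 (0.51, adjusted p = 0.608), Rdh10 (0.07, adjusted p = 0.927), Aldh1a1 (0.04, adjusted p = 0.952) and Crabp1 (-0.38, adjusted p = 0.844). DESeq2 called 2 of the members, Cyp26b1 (adjusted p = 0.0465) and Crabp2 (adjusted p = 0.0979). With the leptomeninges level as a term the adjusted p was 0.982 for each. Both were also called in edgeR without GDX male 1 (adjusted p = 0.0506 and 0.0787) or GDX male 2 (adjusted p = 0.0886 and 0.0916), and Cyp26b1 without intact female 1 (adjusted p = 0.0673) or intact female 2 (adjusted p = 0.0982).

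**Figure D2:**
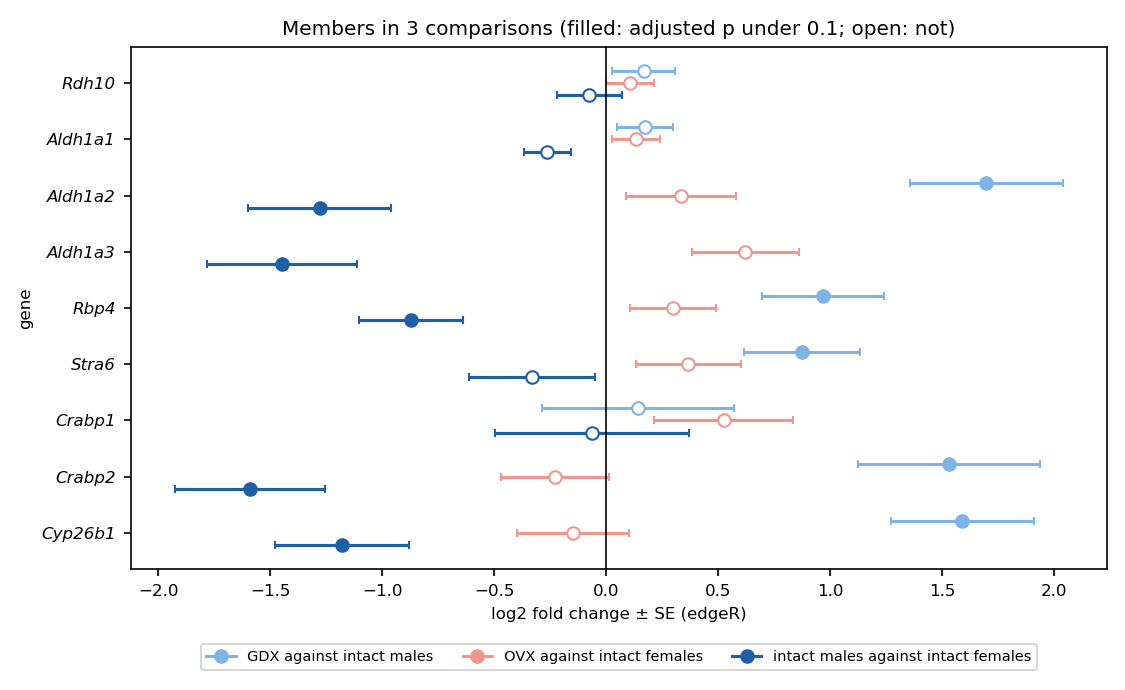
Log2 fold change with SE (horizontal axis) of the 9 genes in GDX against intact males, OVX against intact females and intact males against intact females, filled where the adjusted p was under 0.1. The filled points lie above 0 for GDX and below 0 for intact males against intact females, and these comparisons share the 5 intact males. Aldh1a3 has no point for GDX because it did not pass the filter on low counts there.

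With gonads in place, males had less of several members than females. At an adjusted p under 0.1 (edgeR) 5 of 9 were lower in intact males and 0 were higher, beside 2.56% of 14937 genes lower and 4.01% called in either direction. Crabp2 was lower in males, at a log2 fold change equal to -1.59 ± 0.33 (SE, adjusted p = 0.0211), and 4 of 5 intact males lay below every intact female. For Aldh1a3 the value was -1.45 ± 0.33 (SE, adjusted p = 0.0321), with no overlap between the groups. It passes the filter on low counts by its 8 to 16 reads in the intact females, against 2 to 6 in the males, and without the filter it was called at -1.45 (adjusted p = 0.0692). Aldh1a2 gave -1.28 ± 0.32 (SE, adjusted p = 0.05), Cyp26b1 -1.18 ± 0.30 (SE, adjusted p = 0.052) and Rbp4 -0.87 ± 0.23 (SE, adjusted p = 0.063), and in each of the 3 genes 3 of 5 intact males lay below every intact female. Stra6 gave -0.33 ± 0.28 (SE, adjusted p = 0.632), and the others not called were Rdh10 (-0.08, adjusted p = 0.867), Aldh1a1 (-0.26, adjusted p = 0.236) and Crabp1 (-0.07, adjusted p = 0.966). This comparison uses the same intact males as the comparison of GDX with intact males, so the values stand side by side and neither backs the other.

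The count of 5 was less steady here. At an adjusted p under 0.05 it was 3, and in the short insert libraries alone, 2 rats of each sex, it was 0. The differences themselves were no smaller in those libraries, at -2.23 for Crabp2, -2.28 for Aldh1a3, -1.56 for Aldh1a2, -1.55 for Rbp4 and -1.32 for Cyp26b1, with adjusted p from 0.151 to 0.404. Leaving out 1 rat gave between 1 and 5 members, with 3 without intact male 2, 2 without intact male 5, 2 without intact male 6, 3 without intact female 3, 1 without intact female 4, 2 without intact female 5 and 3 without intact female 6. Aldh1a3 fell under the filter on low counts without intact female 1, 3, 4, 5 or 6. Without intact female 1 Aldh1a1 was called in its place (adjusted p = 0.0782). Crabp2 was called with each of the 11 rats left out, at a log2 fold change between -1.92 and -1.40.

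Males and females without gonads were compared in short insert libraries alone, since GDX and OVX rats have no other. At an adjusted p under 0.1 (edgeR) 0 of 9 members were called, beside 0.232% of 15084 genes. None had an unadjusted p under 0.05, beside 1413 of 15084 genes, and DESeq2 called 0 members. Cyp26b1 had the largest of the 9 values in size, 0.56 ± 0.27 (SE, adjusted p = 0.536), and Aldh1a2 gave 0.08 ± 0.26 (SE, adjusted p = 0.95). The remaining values were Stra6 (0.18, adjusted p = 0.839), Crabp2 (0.17, adjusted p = 0.907), Rdh10 (-0.01, adjusted p = 0.984), Aldh1a3 (-0.17, adjusted p = 0.899), Rbp4 (-0.20, adjusted p = 0.833), Aldh1a1 (-0.22, adjusted p = 0.607) and Crabp1 (-0.44, adjusted p = 0.693). A p above the level does not show that the sexes had equal levels.

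Across the 4 groups, the mean was lowest in intact males for each of the 9 members, and in 7 of 9 the range of the intact males overlapped that of the next group. Neither count was made over all genes, and both describe these members alone. Aldh1a2 rose in the order intact males (7.61 ± 3.73 CPM, SD, n = 5), intact females (18.5 ± 7.54, n = 6), OVX females (23.2 ± 6.62, n = 6) and GDX males (24.7 ± 12.5, n = 5), and each neighbour in this order overlapped the next. Cyp26b1 followed the order intact males (2.39 ± 0.649 CPM, SD, n = 5), OVX females (4.86 ± 1.11, n = 6), intact females (5.43 ± 2.38, n = 6) and GDX males (7.18 ± 3.86, n = 5), with no overlap between the intact males and the OVX females. For Aldh1a3 the order was intact males (0.323 ± 0.143 CPM, SD, n = 5), intact females (0.888 ± 0.216, n = 6), GDX males (1.21 ± 0.504, n = 5) and OVX females (1.37 ± 0.336, n = 6), with no overlap between the intact males and the intact females.

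The remaining orders had overlap between all neighbours. Crabp2 averaged 2.099 ± 1.14 CPM (SD, n = 5) in intact males, 5.45 ± 1.56 (n = 6) in OVX females, 6.14 ± 3.51 (n = 5) in GDX males and 6.41 ± 2.29 (n = 6) in intact females. Rbp4 averaged 3.48 ± 1.13 CPM (SD, n = 5) in intact males, 6.37 ± 1.96 (n = 6) in intact females, 6.82 ± 2.79 (n = 5) in GDX males and 7.801 ± 1.98 (n = 6) in OVX females. Stra6 averaged 1.17 ± 0.218 CPM (SD, n = 5) in intact males, 1.48 ± 0.576 (n = 6) in intact females, 1.89 ± 0.182 (n = 6) in OVX females and 2.14 ± 0.658 (n = 5) in GDX males. Rdh10 had means from 7.69 ± 1.67 CPM (SD, n = 5) in intact males to 8.72 ± 0.572 (n = 6) in OVX females. Aldh1a1 went from 86.5 ± 11.7 CPM (SD, n = 5) in intact males to 114.0 ± 17.2 (n = 6) in OVX females, and Crabp1 from 0.746 ± 0.552 (n = 5) to 1.10 ± 0.386 (n = 6) in the same groups.

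Markers of the leptomeninges and of fibroblasts, the thin connective covering of the cord, moved along with these members. Of 12 genes in the list 11 were in the table and 10 passed the filter on low counts, and 10 of 10 were called higher in GDX than in intact males, with a median log2 fold change of 1.65. Between intact males and intact females 7 of 10 were called lower in males, with a median of -1.28, and 0 of 10 were called after OVX, with a median of 0.29. The summed level of the list was 140.0, 107.7, 106.7, 70.7 and 53.3 CPM in intact males 1, 2, 3, 5 and 6, and 141.2, 217.5, 329.0, 434.4 and 361.2 CPM in GDX males 1, 2, 4, 5 and 6. In intact females it had a low of 116.2, a median of 247.4 and a high of 364.9 CPM, and in OVX females 206.5, 278.1 and 379.4 CPM. GDX male 5, the rat with the most Aldh1a2, Rbp4, Crabp2 and Cyp26b1 among the GDX males, also had the highest sum. Col1a1 was the most abundant gene of the list in all groups but the intact females. It averaged 33.3 CPM in intact males, 116.6 CPM in GDX males and 111.2 CPM in OVX females. In intact females it averaged 78.0 CPM, below Col3a1 at 84.8 CPM. No gene of the list was at 0 in every library.

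With the mean log2 CPM of this list as a term in the model, 0 of the members were called in GDX against intact males, and 1 gene of the whole table was. The log2 fold change was then -0.21 for Aldh1a2, -0.20 for Cyp26b1 and -0.35 for Rbp4, against 0.14 for Crabp2 and 0.43 for Stra6. For intact males against intact females the same term also left 0 members called, with 0.27 for Aldh1a2, 0.39 for Cyp26b1 and -0.07 for Rbp4. Crabp2 (-0.95, adjusted p = 0.821) and Aldh1a3 (-1.07, adjusted p = 0.793) kept more of their difference under it. Group and list level go together in males, so a term for the list also takes up part of the difference between the groups, and these cannot be told apart by it.

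**Figure D3:**
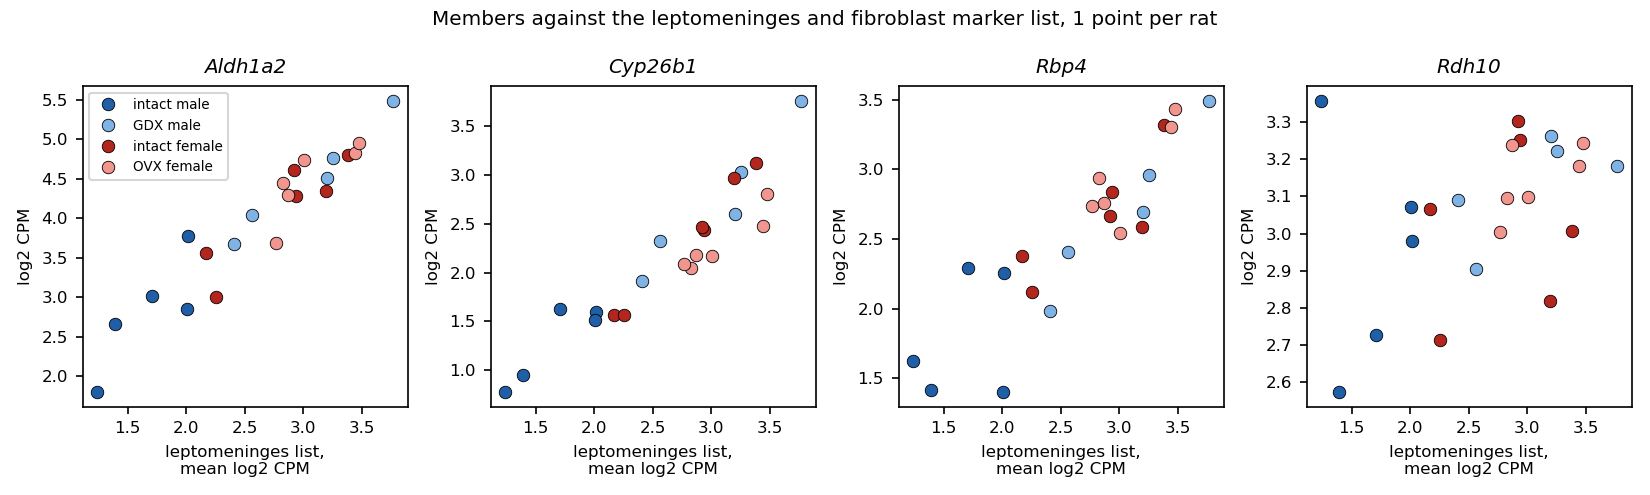
Log2 CPM of Aldh1a2, Cyp26b1, Rbp4 and Rdh10 (vertical axes) against the mean log2 CPM of the leptomeninges and fibroblast list (horizontal axes), 1 point per rat in the colour of its group. Points of Aldh1a2 and Cyp26b1 lie close to a line over all groups, while those of Rdh10 scatter.

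How closely each member followed the list from rat to rat within groups was described after the data had been seen, as deviations from group means over 22 rats and with no test. Pearson's r was 0.956 for Cyp26b1, 0.886 for Aldh1a2, 0.79 for Rbp4, 0.601 for Crabp2 and 0.563 for Stra6, and Spearman's rho was 0.942, 0.88, 0.75, 0.645 and 0.436. For the other members r was 0.243 (Rdh10), 0.175 (Aldh1a3), 0.0939 (Aldh1a1) and -0.168 (Crabp1). For the list, the deviations of GDX male 1 and intact female 1 lay farthest from the median deviation. Without these 2 rats, r was 0.94 for Cyp26b1, 0.875 for Aldh1a2, 0.759 for Rbp4, 0.548 for Crabp2 and 0.427 for Stra6. In the 15 short insert libraries it was 0.958, 0.913, 0.824, 0.703 and 0.588.

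Each member was also set relative to the list, as its log2 CPM minus the mean log2 CPM of the list in the same rat, with an exact permutation test for each gene and sex and p-values adjusted over these 18 tests. No level had been set for them, and at the 0.1 used elsewhere 3 of 18 passed, while at 0.05 none did. For Aldh1a2 the mean was 1.15 ± 0.46 in intact males and 1.46 ± 0.18 in GDX males (SD, n = 5 each), a difference of 0.31 (exact p = 0.222, adjusted 0.444). For Cyp26b1 in males the difference was 0.07 (exact p = 0.579, adjusted 0.768), and for Crabp2 it was 0.08 (exact p = 0.841, adjusted 0.841). For Rbp4 it was -0.46 (exact p = 0.0794, adjusted 0.224) and for Stra6 -0.60 (exact p = 0.0794, adjusted 0.224). Stra6 differed by more than the SD of either group, at 0.39 in intact and 0.53 in GDX males.

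The mean log2 CPM of the list itself was 1.67 in intact and 3.04 in GDX males, so a gene whose level does not change falls against it by construction. The values of Rdh10 and Aldh1a1, whose own levels were not called, restate that rise of the list and are no result about these genes. Rdh10 averaged 1.27 ± 0.48 in intact males and 0.09 ± 0.47 in GDX males (SD, n = 5 each), a difference of -1.17 (exact p = 0.00794, the smallest that 5 against 5 rats allow, adjusted 0.0779). Aldh1a1 averaged 4.75 ± 0.46 in intact males and 3.55 ± 0.57 in GDX males (SD, n = 5 each), a difference of -1.20 (exact p = 0.0159, adjusted 0.0952). In females, Cyp26b1 averaged -0.46 ± 0.18 in intact and -0.77 ± 0.12 in OVX rats (SD, n = 6 each), a difference of -0.31 (exact p = 0.00866, adjusted 0.0779). The list mean was 2.81 in intact and 3.06 in OVX females, and the own level of Cyp26b1 was not called. How much of this difference comes from the list and how much from Cyp26b1 was not tested. With the collagen genes left out of the list 0 of 18 passed, and leaving out 1 rat gave 4 without intact male 2 or intact female 2, 3 without GDX male 1 or 2 or OVX female 3, 4 or 5, and 0 without any of the other 15 rats. Smaller groups have a larger smallest exact p.

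**Figure D4:**
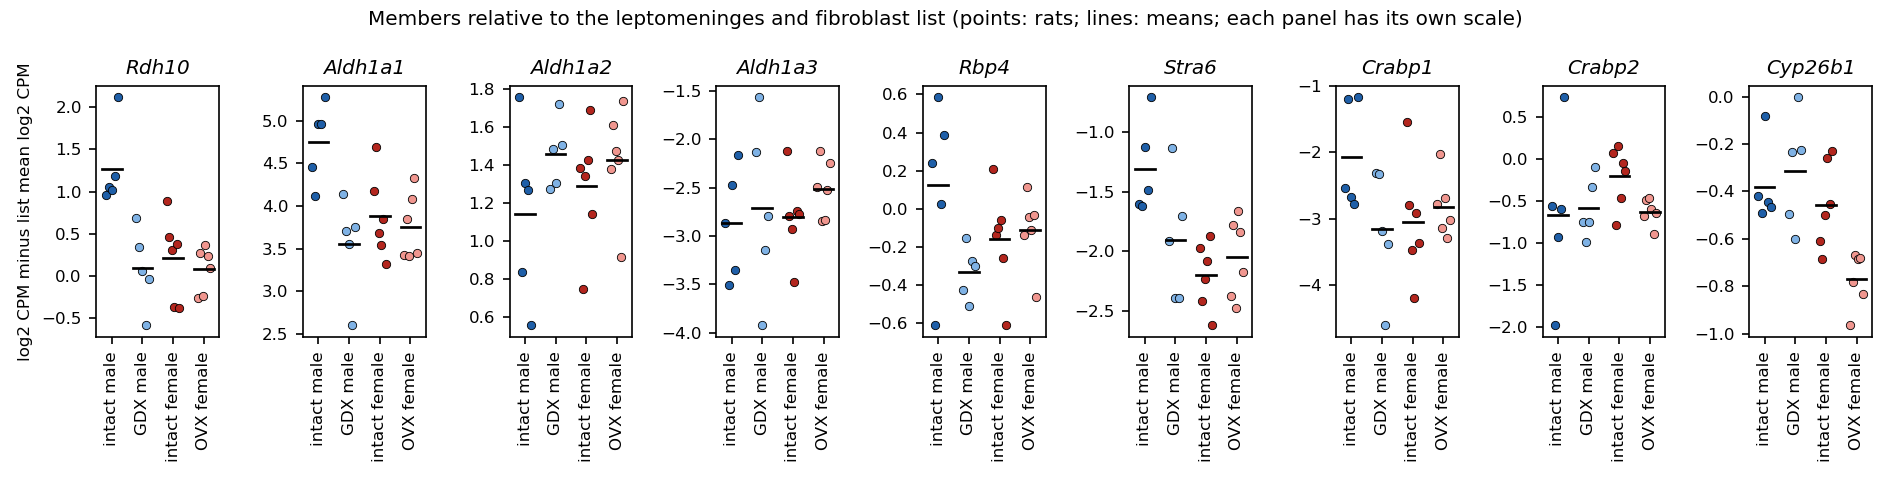
Log2 CPM of each of the 9 genes minus the mean log2 CPM of the leptomeninges and fibroblast list (vertical axes, each panel on its own scale) in every rat of the 4 groups, with lines at the means. Rdh10 and Aldh1a1 lie lower in GDX than in intact males and Cyp26b1 lower in OVX than in intact females, where the list mean itself was higher (3.04 against 1.67 in males, 3.06 against 2.81 in females).

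Markers of Schwann cells, which sheathe the nerve roots, were also low in intact males. Of 4 such markers 2 were called higher in GDX than in intact males and 3 lower in intact males than in intact females. Their summed level averaged 64.5 ± 17.4 CPM (SD, n = 5) in intact males, 94.4 ± 24.9 (n = 5) in GDX males, 111.9 ± 24.0 (n = 6) in intact females and 109.6 ± 16.0 (n = 6) in OVX females, with Drp2 the most abundant. Of 7 endothelial markers 6 were called higher in GDX than in intact males, and their sum rose from 133.5 ± 16.1 CPM to 190.5 ± 20.6 CPM (SD, n = 5 each), with Flt1 the most abundant. In females, where no member was called after OVX, 0 of these 7 were called. An unadjusted p under 0.05 was reached by 6 of the 7, beside 1516 of 14910 genes. Their sum went from 151.1 ± 34.5 CPM to 203.2 ± 29.6 CPM (SD, n = 6 each). In GDX against intact males 3 of 6 markers of pericytes and smooth muscle and 2 of 2 tested markers of erythroid cells were also called higher, with Myh11 and Hbb the most abundant. Of the other lists, beside 6.58% of all genes called lower and 6.78% higher, 2 of 5 markers of neurons (Snap25 at -0.20 and Rbfox3 at -0.33) and 1 of 6 of motor neurons (Slc18a3 at -0.43) were called lower, and 2 of 5 of astrocytes (Gfap at 0.38 and Aqp4 at 0.18) and 1 of 5 of oligodendrocytes (Mbp at 0.17) were called higher. Of 5 microglial markers 0 were called. The part of these cells, or of the amount of meninges and root kept at dissection, in the differences of the members was not tested.

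Other genes of the pathway were taken from lists chosen with earlier results of these data known. In GDX against intact males, Lrp2, a receptor for endocytosis in the list of retinol carriage and storage, was called lower at -0.21 ± 0.06 (log2 fold change ± SE, adjusted p = 0.0466). In this comparison 13.4% of all genes were called, which is the share to set beside the counts that follow. Of 11 retinol dehydrogenases and retinal reductases 1 was called, Dhrs9, at 1.43 ± 0.40 (SE, adjusted p = 0.0382), with means of 0.739 CPM in intact males and 2.01 CPM in GDX males. Of 6 retinoic acid and retinoid X receptors 1 was called, Rarg, at 0.34 ± 0.12 (SE, adjusted p = 0.093).

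Of 7 tested genes listed as targets of retinoic acid 1 was called in the same comparison, Tgm2, a transglutaminase, at 0.67 ± 0.09 (SE, adjusted p = 0.00206). It averaged 18.7 ± 2.55 CPM in intact males and 29.7 ± 2.16 CPM in GDX males (SD, n = 5 each). Of 6 receptor cofactors and of 2 other genes of clearance and carriage 0 were called, with the smallest p at Ncoa1 (-0.10 ± 0.04, SE, adjusted p = 0.11) and Fabp5 (0.10 ± 0.07, SE, adjusted p = 0.474). After OVX 0 genes of these lists were called, and the genes with the smallest p in each list were Lrp2 (-0.23, adjusted p = 0.19), Dhrs9 (0.56, adjusted p = 0.477), Fabp5 (0.05, adjusted p = 0.806), Rxrg (0.10, adjusted p = 0.751), Nrip1 (-0.14, adjusted p = 0.367) and Rarres1 (0.35, adjusted p = 0.285). In the difference between the responses the lists of enzymes, clearance, receptors, cofactors and targets also had 0 calls, with the smallest p at Dhrs9 (0.88, adjusted p = 0.491), Fabp5 (0.05, adjusted p = 0.879), Rxrb (-0.24, adjusted p = 0.41), Ncoa1 (-0.09, adjusted p = 0.463) and Tgm2 (0.24, adjusted p = 0.68). Between intact males and intact females 1 gene was called, Dhrs3, a retinaldehyde reductase that is also listed as a target of retinoic acid, at -0.39 ± 0.09 (SE, adjusted p = 0.0253). In the lists without a call the smallest p was at Lrat (0.44, adjusted p = 0.322), Cyp26a1 (0.29, adjusted p = 0.757), Rxrg (-0.39, adjusted p = 0.112) and Nrip1 (-0.14, adjusted p = 0.316). Ttr, the plasma partner of Rbp4 and an abundant product of choroid plexus, had between 0 and 3 reads in each library.

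The 3 genes most like each member over the 22 rats, by Pearson's r of log2 CPM, are given as a description. For Aldh1a2 they were Fmod (r = 0.979), Vim (0.974) and Cdh1 (0.97), and after subtraction of group means r was 0.96, 0.954 and 0.963. For Cyp26b1 they were Col3a1 (r = 0.941), Fbln1 (0.94) and Itgbl1 (0.936). For Rbp4 they were Ptn (r = 0.93), Bmp6 (0.925) and Ccnf (0.925), and for Crabp2 Ppp1r1a (0.893), Mpzl2 (0.891) and Htra3 (0.88). Col3a1 is itself in the leptomeninges and fibroblast list.

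The other members had less similar companions. For Aldh1a3 they were Olfml2a (r = 0.846), Mylk (0.837) and Pdzrn3 (0.833), and after subtraction of group means r fell to 0.355, 0.547 and 0.467. For Stra6 they were AABR07060833.1 (r = 0.836), Igfbp2 (0.825) and Nid1 (0.825). For Aldh1a1 they were Prpsap2 (r = 0.803), Ei24 (0.794) and Svip (0.78), for Rdh10 Slc4a1 (0.763), Rpf2 (0.732) and Cdh19 (0.721), and for Crabp1 Haus5 (0.716), Terf2 (0.711) and Ptprj (0.708).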

How the data were processed

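RNA of ventral cervical cord was sequenced with 1 library per rat. The deposited values are whole-number read counts per gene, which the authors had not normalized. Their methods name Trimmomatic, Hisat2 and featureCounts, while the submitters' processing notes name TopHat2 2.0.13, Subread and the build Rnor_6.0. Strand and multi-mapping settings are not given in the sources used here. Replicate libraries differed by more than sampling noise (chi-square per degree of freedom 5.23 to 23.5). GDX males 1 and 2 gave 5.35, pairs among GDX males 4, 5 and 6 gave 7.65 to 10.6, and pairs across these sets 11.6 to 23.5. Pairs of OVX females also reached 20.8. GDX males 1 and 2 were the lowest GDX males for Aldh1a2, Rbp4, Crabp2 and Cyp26b1, but not for Stra6 or Aldh1a3. Comparisons used R 4.3.3 and edgeR 4.0.16 (filterByExpr, TMM, glmQLFit, glmQLFTest) with Benjamini-Hochberg adjustment over all genes tested and calls at an adjusted p under 0.1. Log2 CPM had a prior count of 2. Alternatives were DESeq2 1.42.0, RLE factors, other filters and levels, all rats in 1 fit, insert class, RNA integrity or leptomeninges level as a term, a block for the rat number, and fits without each rat. Exact tests used SciPy 1.17.1. The fits were tested on simulated data. Members and lists were chosen with earlier results of these data known. All 9 members are named in each comparison, called genes of each pathway list with up to 6 by p (otherwise the gene with the smallest p), the most abundant gene of each marker list described, and the 3 genes most like each member. A gene of the pathway lists is not reported here. GC and length corrections and a comparison of proteins were not run.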

Additional observations from a re-analysis of the deposited data

How the results depend on the processing

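In OVX against intact females, GDX males against OVX females and long against short inserts, 0 members were called under each alternative run. In GDX against intact males (5 members called) the count was 2 with RNA integrity as a term, 0 with the leptomeninges level as a term and 3 with the replicate block, and 3 to 6 with each rat left out. In intact males against intact females (5 called) it was 3 at an adjusted p under 0.05, 0 with short insert libraries, 0 with the leptomeninges term and 1 with the replicate block, and 1 to 5 with each rat left out. In the difference between the responses (0 called) it was 2 with DESeq2 and 0 to 2 with each rat left out. Of the 18 tests relative to the leptomeninges list (3 under 0.1) 0 passed without collagens and 0 to 4 with each rat left out, an alternative added after seeing the data. The cause of these changes was not tested. In GDX against intact males 1995 genes were called, against 1264 with an adjusted p under 0.05, 796 with insert class, 440 with short inserts, 1262 with RNA integrity, 1 with the leptomeninges term, 1274 with the replicate block and 1202 to 2446 with each rat left out. In OVX against intact females 5 genes were called, against 174 with DESeq2, 11 with no filter, 1 with an adjusted p under 0.05, 9 with all rats in 1 fit, 3 with insert class, 11 with RNA integrity, 10 with the leptomeninges term, 0 with the replicate block and 0 to 113 with each rat left out. In the difference between the responses 18 genes were called, against 243 with DESeq2, 33 with no filter, 6 with a filter at 1 CPM, 2 with an adjusted p under 0.05, 6 with insert class, 5 with short inserts, 5 with RNA integrity, 2 with the leptomeninges term, 0 with the replicate block and 1 to 275 with each rat left out. In intact males against intact females 599 genes were called, against 333 with an adjusted p under 0.05, 34 with short inserts, 19 with the leptomeninges term, 255 with the replicate block and 352 to 777 with each rat left out. In GDX males against OVX females 35 genes were called, against 130 with DESeq2, 61 with all rats in 1 fit, 191 with the leptomeninges term and 23 to 44 with each rat left out. In long against short inserts 1 gene was called, against 58 with DESeq2, 210 with no filter, 0 with an adjusted p under 0.05, 0 with RNA integrity, 2 with the leptomeninges term and 0 to 2 with each rat left out. Between intact and gonadectomized rats of each sex, equal rat numbers gave correlations of -0.0771 to 0.031, and no rat was most like its own number. In those comparisons the replicate block therefore rests on numbers that pair no rats. Between the sexes equal numbers were not compared. Signs that turned, as log2 fold changes, were these. In GDX against intact males they were Crabp1 with insert class as a term (-0.15) and short inserts (-0.16), and, with the leptomeninges term, Aldh1a2 (-0.21), Rbp4 (-0.35) and Cyp26b1 (-0.20). In the difference between the responses, with that term, they were Aldh1a1 (-0.029), Aldh1a2 (-0.17), Rbp4 (-0.35), Stra6 (-0.083) and Rdh10 (-0.064). In intact males against intact females, with that term, they were Aldh1a2 (0.27), Stra6 (0.60) and Cyp26b1 (0.39). In GDX males against OVX females Rdh10 turned with the replicate block (0.0092). In long against short inserts, where values were near 0, Cyp26b1 turned with DESeq2 (0.0005), RNA integrity (0.044), the leptomeninges term (0.044) and the replicate block (0.29), and Stra6 with RNA integrity (-0.039). With each rat left out, ranges that cross 0 were Crabp1 -0.10 to 0.62 in GDX against intact males. They were Cyp26b1 -0.29 to 0.025 in OVX against intact females. They were Aldh1a1 -0.074 to 0.12, Crabp1 -0.66 to 0.10, Rdh10 -0.023 to 0.19 in the difference between the responses. They were Crabp1 -0.54 to 0.17, Rdh10 -0.20 to 0.013 in intact males against intact females. They were Aldh1a2 -0.24 to 0.25, Aldh1a3 -0.38 to 0.033, Crabp2 -0.13 to 0.35, Rdh10 -0.046 to 0.046 in GDX males against OVX females. They were Aldh1a2 -0.18 to 0.46, Rbp4 -0.051 to 0.47, Stra6 -0.14 to 0.41, Rdh10 -0.0021 to 0.17, Cyp26b1 -0.29 to 0.46 in long against short inserts. Relative to the list they were Aldh1a1 in females -0.23 to 0.044, Aldh1a3 in males -0.13 to 0.46, Crabp1 in females -0.0016 to 0.53, Crabp2 in males -0.25 to 0.43, Rbp4 in females -0.043 to 0.12, Cyp26b1 in males -0.0083 to 0.14. Low counts limit Aldh1a3, Crabp1 and Stra6 most.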
